A study of Mus musculus with 18 samples.

Results

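The messenger RNAs of the machinery that makes and uses microRNAs were followed in epididymal white adipose tissue (eWAT), the fat pad beside the mouse testis. They are 10 genes, chosen by symbol as textbook components of the pathway (Drosha, Dgcr8, Xpo5, Dicer1, Tarbp2, Ago1, Ago2, Ago3, Ago4 and Tnrc6a), and all 10 were found among the 16452 genes of the count table. RNA sequencing was done on whole eWAT of wild-type male C57BL/6 mice on a diet labelled LFD, of a generation the labels name Fm. By the labels these males go back to zygotes injected with the microRNA let-7d, with let-7e or with a negative control (treatment names beginning with IVF); whether they grew from those zygotes or were fathered by mice that did is not stated. Counts were analysed for 5 control, 6 let-7d and 6 let-7e libraries; control replicate 5 is not analysed here. They ate chow up to 6 weeks of age; the feeding text ends the LFD at 15 weeks whereas the age label reads 24 weeks, so the age at sampling is uncertain. No label says whether mice of 1 group shared a father or a litter, so p-values measure the spread between these libraries. The injected microRNA itself was not measured, since these are messenger RNA counts of grown mice.

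MicroRNAs are cut from long primary transcripts in steps. In the nucleus the Microprocessor, the nuclease Drosha with its RNA-binding partner Dgcr8, releases a hairpin, and Exportin-5 (Xpo5) carries the hairpin to the cytoplasm. There Dicer1, helped by the double-stranded RNA-binding protein Tarbp2, cuts the loop away, and 1 strand is loaded into an Argonaute protein, which is guided to messages that pair with the seed of the microRNA. Tnrc6a, a GW182 protein, binds Argonaute and recruits the enzymes that shorten and decap the message. In mice, loss of Dicer1 from fat cells is known to disturb fat tissue.

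The hairpins and mature strands of the injected microRNAs are shown because they are substrates of these proteins and because their seed defines the matches searched for in the 10 genes. In the hairpins the capitals mark both mature arms, and in the mature strands they mark the seed, bases 2 to 8 from the 5′ end (RefSeq, GRCm38.p6; let-7d lies on the minus strand of chromosome 13, let-7e on the plus strand of chromosome 17).
let-7d hairpin: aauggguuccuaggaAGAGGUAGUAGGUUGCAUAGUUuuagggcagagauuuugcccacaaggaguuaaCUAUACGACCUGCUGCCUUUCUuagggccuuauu
let-7e hairpin: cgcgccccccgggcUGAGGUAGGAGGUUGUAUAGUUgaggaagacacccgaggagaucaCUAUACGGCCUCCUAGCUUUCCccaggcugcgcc
let-7d-5p: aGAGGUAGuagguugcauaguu
let-7e-5p: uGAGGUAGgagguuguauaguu
The capitals of let-7d-5p and let-7e-5p are the same 7 letters, so both share the seed match CTACCTC in a message.

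The seed match was looked for in GENCODE M21 transcripts with the longest coding sequence of each gene, on the sense strand alone. Of the 10 genes, 3 held it in the coding sequence, where 14.9% of 14251 genes did. In the 3′ UTR 3 held it, where 9.1% of 13993 genes did, and 5 held it in neither. These shares are not matched for length. The 3′ UTRs with a match span 11064 (Ago2), 12742 (Ago3) and 334 bases (Tarbp2), beside a median of 952 bases over all genes. Dicer1 had 4 coding matches, a number reached by 9 of 14251 genes and by 7 of the 448 genes with a coding sequence at least as long. Matches to let-7 in the coding sequence of Dicer have been described for the human gene. The 4 sites are shown with 15 bases before and 3 after the match, which is in capitals; positions count from the first base of the coding sequence.
Dicer1 at 2605: tcagcctactgtgttCTACCTCtta
Dicer1 at 3611: tacctgtacaaccaaCTACCTCata
Dicer1 at 3719: ggaacgctaacacatCTACCTCaga
Dicer1 at 5091: agatgcgattttggaCTACCTCata
Ago2 had 3 matches in its 3′ UTR of 11064 bases, a number reached by 4 of the 21 genes with a 3′ UTR at least as long, Ago2 included. Tarbp2 had 1 match in a 3′ UTR of 334 bases. These 4 sites are shown because Ago2 and Tarbp2 had the smallest p-values of the 10 genes against the controls; positions count from the first base after the stop codon.
Ago2 at 5177: acagatgcataaaagCTACCTCtga
Ago2 at 6861: caggtggcctctgtcCTACCTCcag
Ago2 at 8919: ttttacaatgtggatCTACCTCagt
Tarbp2 at 102: ccagaggtgccatctCTACCTCtga
Xpo5 had 2 coding matches and Ago3 had 1 coding and 1 in its 3′ UTR. A match is a stretch of letters and not a measured site, and no binding was measured.

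In the GRCm38 annotation Ago3 (chr4:126331704-126429556), Ago1 (chr4:126435012-126468583) and Ago4 (chr4:126489541-126533472) lie side by side on the minus strand of chromosome 4. Ago2 (chr15:73095844-73184935, minus strand), Drosha (chr15:12824815-12935291, plus strand) and Tarbp2 (chr15:102518192-102523676, plus strand) are spread over chromosome 15. Dicer1 lies at chr12:104687742-104751952 and Dgcr8 at chr16:18253948-18289246, both on the minus strand. Xpo5 lies at chr17:46202782-46243598 and Tnrc6a at chr7:123123885-123195296, both on the plus strand. Exons of Dgcr8 overlap 825 bases of Trmt2a, and exons of Ago2 overlap 219 bases of Chrac1, each on the opposite strand. On the same strand, exons of Dgcr8 overlap 327 bases of the protein-coding Gm49776, and exons of Tnrc6a overlap 143 bases of the lincRNA Gm45846, neither of which is in the count table. The sources used here do not say whether counting used the strand, and same-strand reads are shared under any setting, so reads in those overlaps cannot be assigned with certainty.

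The shallowest library, let-7d 6, held 12717365 counts and the deepest, let-7d 1, held 28972306. Library identifiers fall into 2 series: let-7d 1 and 2 and let-7e 1 and 2 carry plain numbers and are called early here, the other 13 carry an A prefix and are called late, and no control is early. No label says what the series stands for. Several libraries stood apart by transcripts of neighbouring tissue: control 3 held 17460 CPM (counts as a rate per library, scaled by the TMM method) of epididymis and vas deferens markers where the let-7 libraries held at most 31.5 CPM. Control 6 held 1367 CPM of spermatid markers, against at most 65.9 CPM in the let-7 libraries, and let-7d 1 (609.3 CPM), control 3 (373.1 CPM) and let-7d 5 (260.3 CPM) held the most of the epithelial list. The sample was adipose by its markers, since all 8 adipocyte markers were measured and together reached 25320 to 53530 CPM in every library. In such bulk tissue, fewer cells of a type and less RNA per cell cannot be told apart.

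All 10 genes were expressed at moderate levels, with Drosha the most abundant message per length and Ago3 and Ago4 the least. In RPKM, here the scaled CPM divided by the kilobases of merged exons, Drosha stood at 9.91 ± 1.03 (SD, n = 17), above 73.8% of all genes. It exceeded the next gene, Tnrc6a, in 17 of 17 libraries. Tnrc6a (5.17 ± 0.776 RPKM), Xpo5 (4.94 ± 0.622), Tarbp2 (4.83 ± 0.715) and Ago1 (4.81 ± 0.509) formed a plateau, in which each gene exceeded the next in 9 of 17 libraries up to Tarbp2 against Ago1. These neighbours therefore did not differ beyond their spread. Ago2 followed at 4.09 ± 0.693 RPKM, below Ago1 in 15 of 17 libraries. Dicer1 (2.52 ± 0.298 RPKM) exceeded Dgcr8 (2.31 ± 0.459 RPKM) in 12 of 17 libraries. Ago4 (1.25 ± 0.227 RPKM) and Ago3 (1.04 ± 0.118 RPKM) came last, above 29.3% and 26.1% of all genes, whose median was 3.59 RPKM.

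This order depends on the length taken, and the 3′ UTRs of Ago2 and Ago3 alone span 11064 and 12742 bases. Divided by coding length, Ago2 came first at 22.3 RPKM and Drosha stood at 14.3 RPKM, and Ago3 (6.69 RPKM) exceeded Ago4 (3.36 RPKM) in 17 of 17 libraries. By merged exons Ago4 exceeded Ago3 in 16 of 17. The order of genes with near levels is thus a description of 1 choice of length.

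None of the 10 genes passed the test with let-7d or let-7e injection. At an adjusted p under 0.05 (edgeR's quasi-likelihood test, Benjamini-Hochberg over 16452 genes), 0 of 10 passed against control with let-7d and 0 of 10 with let-7e, where 0% of all genes passed in each. An unadjusted p under 0.05 was reached by 1 of 10 with let-7d, where 10.2% of all genes reached it, and by 1 of 10 with let-7e, where 10.5% did. DESeq2 called 10 and 15 genes in these comparisons and none of the 10 pathway genes. The median log2 fold change of the 10 genes was -0.03 with let-7d and 0.00 with let-7e on the log2 scale, beside -0.04 over all genes in both. It was above 0 for 3 of 10 genes with let-7d, where 42.5% of all genes were, and for 4 of 10 with let-7e, where 41.9% were. Groups did not overlap for 0.517% of all genes with let-7d and for 0.632% with let-7e, and for 0 of the 10 genes in each. Both comparisons use the same 5 controls.

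**Figure D1:**
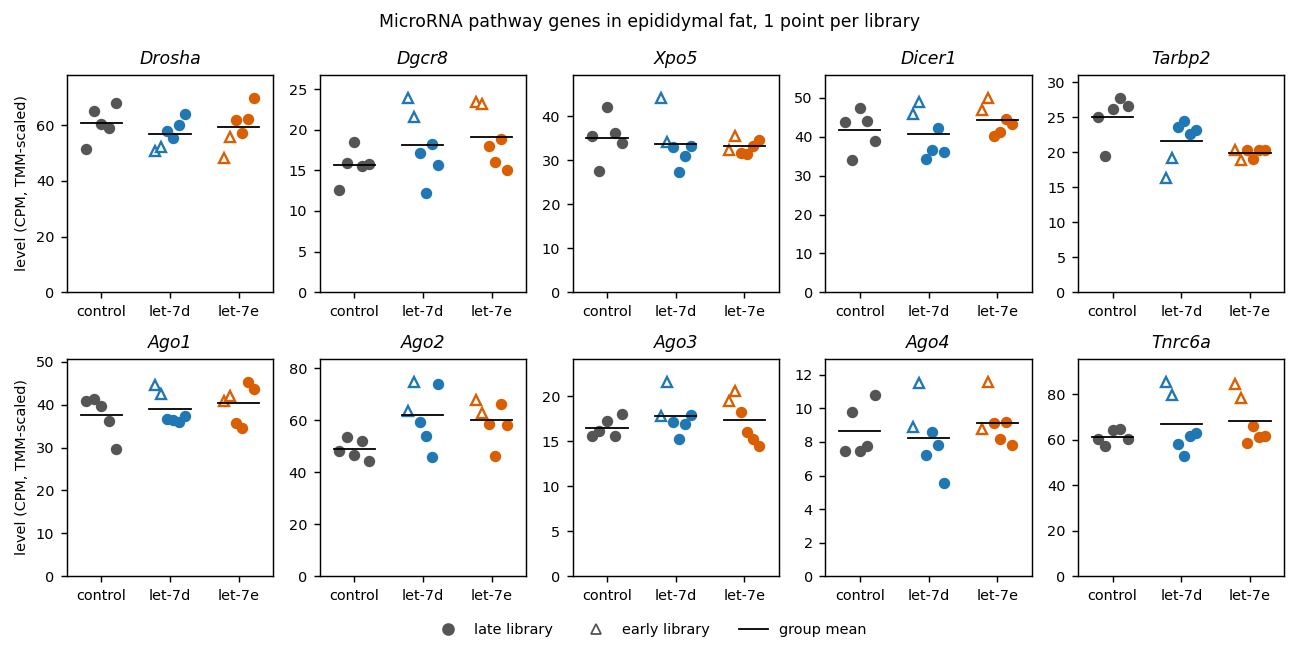
Level of each pathway gene (CPM, TMM-scaled, vertical axis from 0) in every library, by group; filled circles are late and open triangles early libraries, and the line is the group mean over 5 control, 6 let-7d or 6 let-7e libraries. The open triangles of Tnrc6a (78.5 to 85.4 CPM) and Dgcr8 (21.6 to 23.9 CPM) stand above every filled circle, while control and let-7 groups overlap for every gene.

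Ago2, the Argonaute that can itself cut a paired message, had the largest positive fold change against controls in both let-7 groups. Its level was 48.2, 53.4, 46.8, 51.9 and 44.5 CPM in controls 1, 2, 3, 4 and 6. With let-7d it ran from 45.9 (let-7d 5) over a median of 61.5 to 74.8 CPM (let-7d 2), and with let-7e from 46.3 (let-7e 4) over 60.7 to 67.7 CPM (let-7e 1). In each let-7 group 5 of 6 libraries lay above the control mean and 1 lay among the controls. Both maxima, let-7d 2 and let-7e 1, are early libraries, and no control is early. Among late libraries alone the mean was 58.3 CPM with let-7d and 57.3 with let-7e, against 48.9 in controls. The log2 fold change was 0.26 with let-7d (95% interval 0.01 to 0.51, unadjusted p = 0.0404, adjusted p = 0.479, edgeR) and 0.22 with let-7e (-0.03 to 0.47, adjusted p = 0.522). Neither passed, and leaving out any 1 of 17 libraries kept the let-7d value between 0.16 and 0.34.

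Tarbp2, the Dicer partner, was the gene with the lowest fold change in let-7e. Its level was 25.03, 19.4, 26.2, 27.8 and 26.6 CPM in controls 1, 2, 3, 4 and 6. With let-7e it lay in a narrow range, 18.9 to 20.4 CPM with a median of 20.3, and with let-7d it ran from 16.3 (let-7d 1) over 22.9 to 24.5 CPM (let-7d 4). All 12 let-7 libraries lay below the control mean, and control 2 alone reached into the range of let-7e. The log2 fold change was -0.26 with let-7e (95% interval -0.47 to -0.04, unadjusted p = 0.0219, adjusted p = 0.406, edgeR) and -0.15 with let-7d (-0.37 to 0.06, adjusted p = 0.599). Several marker lists leaned to 1 side against the controls, and 0 of their genes passed (edgeR). All 8 macrophage markers were above 0 in both let-7 groups. Of 8 endothelial markers 7 were above 0 with let-7d and 8 with let-7e, and of 8 adipocyte markers 4 and 8. All 8 lymphocyte and all 5 smooth muscle markers were below 0 in both groups. The smooth muscle markers summed to 13180 CPM in control 3. Their median sum was 229.1 CPM in controls, 311.3 with let-7d and 288.6 with let-7e, so the medians did not share that lean. Of all genes 42.5% and 41.9% were above 0. The part of these lists was not tested, beyond leaving out libraries.

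The other 8 genes gave log2 fold changes between -0.20 (Ago4 with let-7d) and 0.10 (Dgcr8 with let-7e) against the controls. Their 95% intervals bound what these libraries could have hidden. For Dicer1 the interval was -0.32 to 0.05 with let-7d and -0.19 to 0.18 with let-7e, and for Tnrc6a it was -0.18 to 0.09 and -0.14 to 0.13. Ago4, at 5.57 to 11.6 CPM the lowest of the 10 before division by length, had the widest intervals, -0.54 to 0.13 and -0.38 to 0.28. Drosha (-0.19 to 0.15 and -0.14 to 0.20) and Ago3 (-0.18 to 0.19 and -0.22 to 0.15) had narrow ones. Xpo5 lay at -0.12 and -0.15, Ago1 at -0.0019 and 0.05, and Dgcr8 at 0.03 with let-7d.

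Set beside the seed matches, the genes showed no single direction. Dicer1, with 4 coding matches, gave log2 fold changes of -0.13 and -0.0044 with let-7d and let-7e. Xpo5, with 2, gave -0.12 and -0.15, and Ago3, with 1 in each region, gave 0.0072 and -0.03. Among the genes with 3′ UTR matches Tarbp2 lay below 0 and Ago2 above 0 in both. No value among these passed.

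The let-7e and let-7d groups, whose injected microRNAs share a seed, were also set against each other. Of the 10 genes 0 passed, beside 0% of all genes, and 0 had an unadjusted p under 0.05, where 6.67% of all genes did (edgeR); DESeq2 called 14 genes and none of the 10. The log2 fold changes of let-7e against let-7d ran from -0.10 (Tarbp2) to 0.15 (Ago4), with 6 of 10 above 0, where 46.9% of all genes were. Groups did not overlap for 0.237% of all genes and for 0 of the 10.

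**Figure D2:**
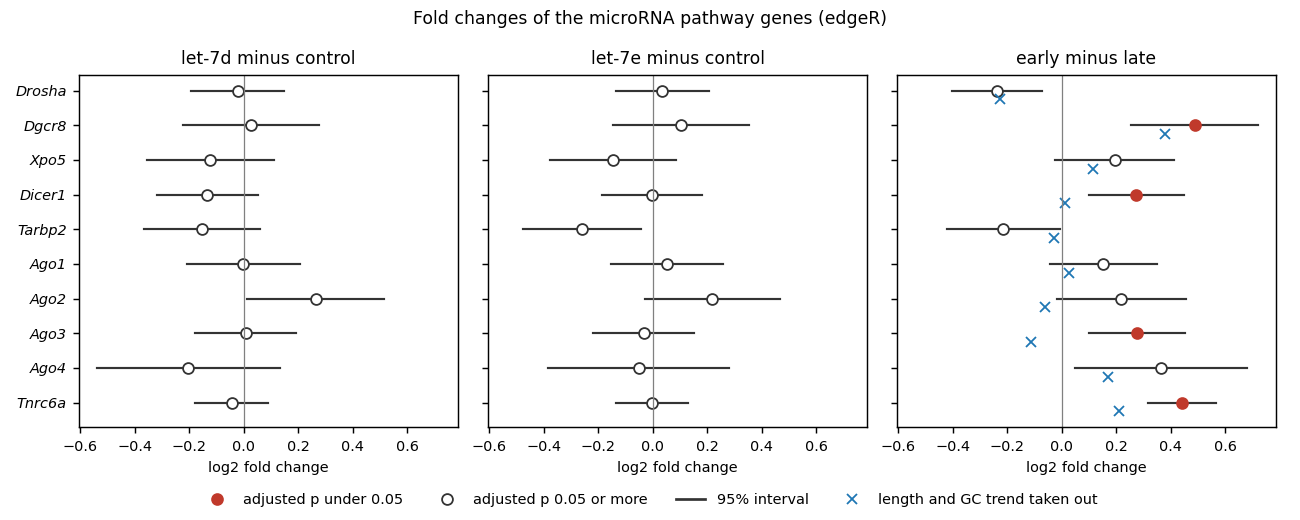
Log2 fold change of each pathway gene (horizontal axis) for let-7d minus control, let-7e minus control and early minus late libraries, with 95% intervals; filled points passed an adjusted p under 0.05 (edgeR) and crosses give the early minus late value with the length and GC trend of every library removed. All points of the left and middle panels are open, and 4 genes are filled on the right.

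The Argonautes bind a common pool of microRNAs, and the share of each in the summed Argonaute level per kilobase of merged exons was computed in the late libraries, the series that holds all groups. Ago2 made up 33.7 ± 1.55% in controls (SD, n = 5), 38.4 ± 4.87% with let-7d (n = 4) and 36.4 ± 1.77% with let-7e (n = 4). Control libraries 1, 2, 3, 4 and 6 stood at 32.7, 33.8, 32.2, 36.2 and 33.4%. The late let-7d libraries 3 to 6 stood at 39.1, 36.7, 33.2 and 44.8%, and the late let-7e libraries 3 to 6 at 37.9, 34.1, 37.7 and 36.0%. The let-7 libraries were mostly above the controls, and let-7d 5, let-7e 4 and let-7e 6 lay within their range. The share was higher by 4.76 percentage points with let-7d (exact permutation test, two-sided, p = 0.0794, adjusted over 3 pairs 0.119) and by 2.72 points with let-7e (p = 0.0476, adjusted 0.119); the smallest p these group sizes allow is 0.0159. Without let-7d 6, the library with the highest share, the difference with let-7d was 2.64 points (exact p = 0.179). With the early libraries added the differences were 4.62 and 3.08 points and the adjusted exact p fell to 0.039 in both, so the call depends on libraries of a series with no control.

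The other shares in controls were 44.5 ± 3.75% for Ago1, 12.1 ± 2.57% for Ago4 and 9.69 ± 1.15% for Ago3 (SD, n = 5). Control 6, the library with spermatid transcripts, had the highest share of Ago4 (16.4%) and Ago3 (11.5%) and the lowest of Ago1 (38.6%). Its part in the group mean was tested only by leaving libraries out: without the 4 libraries that held neighbouring tissue or epithelium (control 3, control 6, let-7d 1, let-7d 5), the Ago2 share differed by 5.94 points with let-7d and by 2.15 with let-7e (adjusted exact p = 0.171 each, with a smallest possible unadjusted p of 0.1 and 0.0571, so that neither could pass). By coding length Ago2 (43.8 ± 1.75%) and not Ago1 (33.6 ± 3.05%) held the largest share in controls. The difference with let-7d was then 4.80 points, near the value by merged exons.

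**Figure D3:**
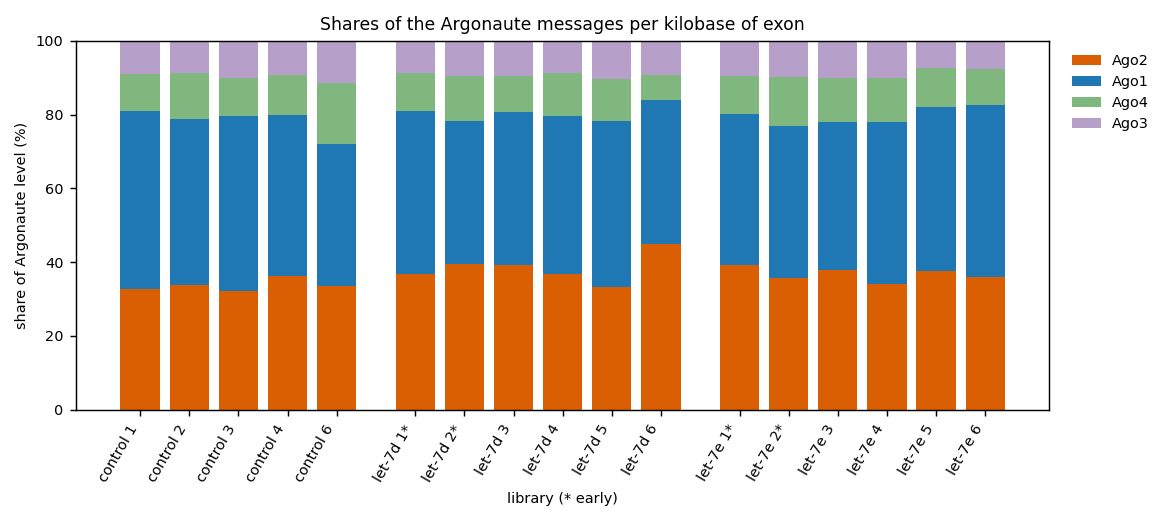
Share of each Argonaute gene in the summed level per kilobase of merged exons (vertical axis, percent) in every library; stars mark early libraries. The Ago2 part ranges from 32.2% (control 3) to 44.8% (let-7d 6).

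The largest differences among these genes lay between the identifier series. Early libraries held more Tnrc6a, Dgcr8, Ago3 and Dicer1 message than late ones: 4 of 10 genes were higher and 0 lower at an adjusted p under 0.05 (edgeR, the series term of the same fit), where 12.2% of all genes passed, 5.46% higher and 6.72% lower. The median log2 difference of the 10 genes was 0.25, beside 0.0044 over all genes, and 8 of 10 were above 0, where 50.5% of all genes were. Early and late let-7 libraries did not overlap for 3 of the 10 genes, all higher in early, where 11.5% of all genes did not overlap, 5.35% being higher and 6.13% lower. The early libraries were sequenced deeper, with a median total of 25432685 counts against 16530251 in the late let-7 libraries.

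Tnrc6a, the GW182 scaffold of the silencing complex, changed with the smallest p of the 10. It stood at 85.4, 79.6, 84.4 and 78.5 CPM in let-7d 1, let-7d 2, let-7e 1 and let-7e 2, and at 53.0 to 65.9 CPM, median 61.3, in the 8 late let-7 libraries. The controls, at 57.2 to 64.8 CPM, fell within the late range, and every early library was above every late one. The log2 difference was 0.44 ± 0.059 (SE, adjusted p = 0.000157, edgeR).

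Dgcr8 had the largest difference. The early libraries held 23.9, 21.6, 23.4 and 23.2 CPM, in the same order, against 12.3 to 18.8 CPM, median 16.6, in the late let-7 libraries and 12.6 to 18.5 CPM in controls. Again no late library reached the early range. The log2 difference was 0.49 ± 0.11 (SE, adjusted p = 0.00748, edgeR).

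Dicer1 stood at 45.9, 49.0, 47.0 and 50.0 CPM in the early libraries and at 34.2 to 44.5 CPM in the late let-7 libraries, a log2 difference of 0.27 ± 0.0819 (SE, adjusted p = 0.0389, edgeR). The early range was clear of the late let-7 libraries but not of the controls, of which control 3 reached 47.5 CPM. Ago3 stood at 17.8, 21.6, 19.4 and 20.6 CPM against 14.4 to 18.2 CPM, a log2 difference of 0.28 ± 0.0827 (SE, adjusted p = 0.039, edgeR), with let-7d 1 inside the late range. Both calls sat near the threshold: each was kept in 9 of the 17 fits that left out 1 library, whereas Dgcr8 and Tnrc6a were kept in 17 of 17. The series term rests on the let-7d and let-7e libraries, so the fits without a control could hardly move it. Every loss came from leaving out a let-7 library. Dicer1 was lost without let-7d 1, 2, 3, 4 or 6 or let-7e 2, 3 or 4, with adjusted p from 0.0578 (without let-7e 4) to 0.137 (without let-7d 2). Ago3 was lost without let-7d 2, 3 or 5 or let-7e 1, 2, 4, 5 or 6, with adjusted p from 0.0509 (without let-7e 6) to 0.151 (without let-7d 2). With the replicate number as a block none of the 10 genes passed and 0.267% of all genes did, the log2 differences and adjusted p being 0.78 (0.0738) for Dgcr8, 0.55 (0.079) for Tnrc6a, 0.48 (0.187) for Dicer1 and 0.36 (0.3) for Ago3. The early libraries are replicates 1 and 2 of their groups, so the block and the series overlap.

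Drosha and Tarbp2 pointed the other way without passing. Drosha stood at 50.8, 52.2, 48.3 and 55.7 CPM in the early libraries and at 55.3 to 69.9 CPM in the late let-7 libraries, overlapping through let-7e 2, with a log2 difference of -0.24 (adjusted p = 0.0567, edgeR); DESeq2 (0.0228) and limma-voom (0.0283) put it past the threshold. Tarbp2 had -0.21 (adjusted p = 0.185). Ago4 (0.36, adjusted p = 0.134), Ago2 (0.22, 0.246), Xpo5 (0.19, 0.273) and Ago1 (0.15, 0.34) were above 0 and did not pass.

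The Microprocessor partners therefore stood in another ratio in the early libraries, a quantity computed after the values were seen and given without a test. Dgcr8 had 47.1, 41.4, 48.4 and 41.5 counts per 100 Drosha counts in let-7d 1, let-7d 2, let-7e 1 and let-7e 2. The late let-7 libraries had 21.6 to 30.3 and the controls 23.2 to 30.6. Being a ratio within 1 library, it does not depend on scaling between libraries, and it shows unequal change and not which of the genes changed. Drosha protein is known to cut hairpins in the Dgcr8 message itself. Mir1306 and Gm24572 are annotated as microRNAs in exons of Dgcr8, and the hairpin of Mir1306 is shown because it lies inside the coding sequence, at bases 524 to 602 of a transcript coding from 425 to 2743 (RefSeq, GRCm38.p6, chromosome 16, minus strand; capitals mark the mature arms).
Mir1306 hairpin: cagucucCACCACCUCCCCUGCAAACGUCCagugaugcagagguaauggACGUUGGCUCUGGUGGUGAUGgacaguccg
Trmt2a, which overlaps Dgcr8 on the other strand, had a log2 difference of -0.09 (adjusted p = 0.478, edgeR) between early and late libraries.

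**Figure D4:**
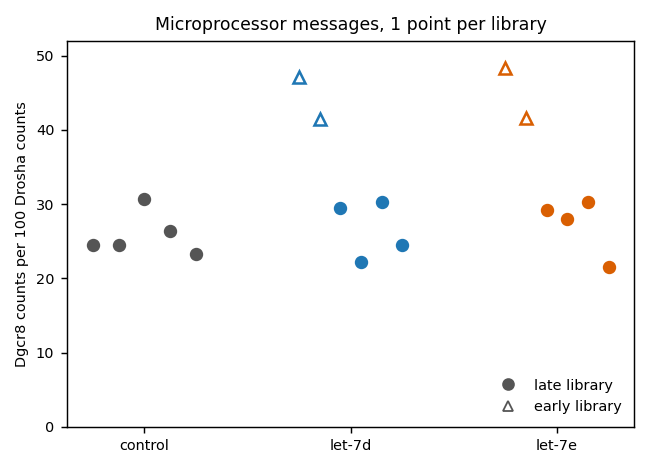
Dgcr8 counts per 100 Drosha counts (vertical axis from 0) in every library by group; circles are late and triangles early libraries. The 4 triangles lie between 41.4 and 48.4, above all circles, the highest of which is 30.6 in control 3.

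Transcript length and GC content moved with the early-late difference over all genes. The median log2 difference was 0.19, 0.08, -0.06 and -0.27 in 4 equal bins of genes from the poorest in GC to the richest, and -0.10, -0.04, 0.02 and 0.16 in 4 such bins from the shortest transcripts to the longest. Of the 10 genes 7 were in the bin of longest transcripts and 0 in the bin richest in GC, so their place on these scales was not that of the average gene. In an alternative chosen after the data were seen, the trend of every library with length and GC was removed through an offset: 1 of the 10 genes then passed, where 2.34% of all genes did. Dgcr8 kept a log2 difference of 0.38 (adjusted p = 0.047, edgeR), while Tnrc6a had 0.21 (adjusted p = 0.153), Dicer1 0.01 (0.977) and Ago3 -0.11 (0.586). Drosha, at -0.23 (0.138), moved little. The source of the trend was not tested.

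**Figure D5:**
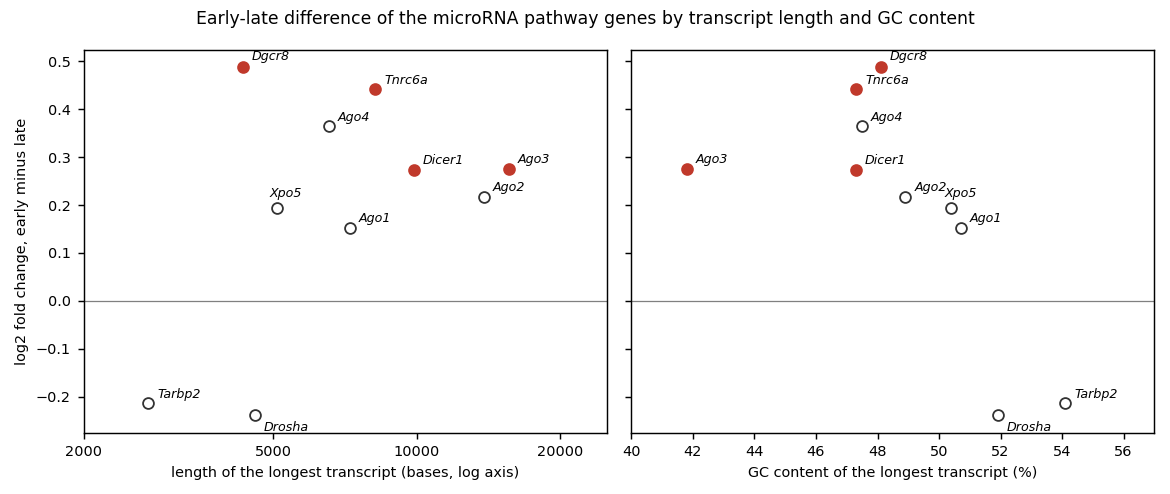
Early minus late log2 fold change of the 10 pathway genes (vertical axis) against the length (left, bases, log axis) and GC content (right, percent) of the longest transcript; filled points passed an adjusted p under 0.05 (edgeR). The negative values belong to Drosha (4570 bases, 51.9% GC) and Tarbp2 (2732 bases, 54.1% GC), the genes richest in GC of the 10.

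Taken within a group, the early-late difference of Tnrc6a was 0.53 in let-7d (adjusted p = 0.0084, edgeR) and 0.38 in let-7e (0.06), each from 2 early and 4 late libraries. Dgcr8 had 0.56 (0.0503) and 0.44 (0.188), and Dicer1 0.39 (0.0321) and 0.18 (0.407). In let-7d 3 of the 10 genes passed, the third being Tarbp2 (-0.37, adjusted p = 0.0355), where 8.25% of all genes did, and in let-7e 0 passed, where 2.98% did. The difference between the groups was itself tested and passed for 0 of the 10 and 0% of all genes (edgeR interaction; 515 genes had an unadjusted p under 0.05, and limma-voom also called 0). Tarbp2 had the smallest interaction p of the 10 genes (0.32, unadjusted p = 0.0299, adjusted p = 0.988, edgeR). The epithelial list was high in let-7d 1 (609.3 CPM against 4.92 CPM in let-7d 2). Between early and late, 7 of its 7 genes were above 0, with a median log2 difference of 1.48, and 0 passed. Mesothelial (5 of 5), smooth muscle (5 of 5) and spermatid markers (7 of 7) were below 0 and 0 passed. Of 8 stromal markers 4 were below 0 and 1 passed, lower in early. Endothelial markers were below 0 in 8 of 8 genes and 3 passed, with 969.5 to 1380 CPM summed in early and 1449 to 1816 CPM in late let-7 libraries; 7 of 8 adipocyte markers were below 0 and 1 passed. The part of these lists in the differences of the pathway genes was not tested, beyond the fit without the 4 libraries named above. In that fit 3 of the 10 genes passed (Dgcr8, Tnrc6a and Ago3), where 11.1% of all genes did. Dicer1 had an adjusted p of 0.054 there (edgeR).

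Other genes of the pathway were taken from lists of textbook components. Against the controls, 0 of them passed in either let-7 group (edgeR). Among 8 proteins that help the Microprocessor the splicing factor Srsf3 had 0.17 (adjusted p = 0.536) with let-7d, and the smallest p-values in each direction with let-7e belonged to Hnrnpa1 (-0.17, 0.521) and Ddx17 (0.02, 0.958). Among 11 partners of Dicer and of Argonaute loading, the chaperone Hspa8 had 0.30 (0.536) with let-7d and 0.19 (0.692) with let-7e, Tsnax -0.08 (0.663) with let-7d, and the co-chaperone Fkbp4 -0.43 (0.457) with let-7e. Of 24 deadenylation and decapping genes, the decapping enzyme Dcp2 had 0.23 (0.468) and 0.12 (0.668), Edc3 -0.27 (0.473) with let-7d, and Cnot11 -0.19 (0.417) with let-7e. These values are log2 fold changes with edgeR's adjusted p.

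The smaller lists gave the same count of 0. Of the GW182 paralogues, Tnrc6b had 0.09 with both injected microRNAs (adjusted p = 0.644 and 0.673) and Tnrc6c -0.09 (0.687) and -0.02 (0.963). Of 4 measured regulators of let-7 precursors, the uridylyltransferase Tut4 had -0.30 (0.633) with let-7d, its relative Tut7 0.11 (0.597) and the exonuclease Dis3l2 -0.19 (0.628) with let-7e. The let-7 antagonists Lin28a and Lin28b were not among the genes of the filtered table. Of 4 turnover genes, Eri1 had 0.03 (0.941) and 0.06 (0.886), Xrn2 -0.14 (0.602) with let-7d and Pnpt1 -0.07 (0.838) with let-7e. Of 5 genes of nuclear export, Ran had 0.07 (0.911) with let-7d and Rangap1 -0.22 (0.591) and -0.18 (0.669). In let-7e against let-7d 0 genes of these lists passed either; the smallest p was that of Srsf3 (-0.22, adjusted p = 0.7). The genes of smallest p in each direction, above 0 and below, were in the other lists Tsnax (0.09, 0.811) and Hsp90aa1 (-0.18, 0.839) among the loading partners, Tnrc6c (0.07, 0.901) and Tnrc6b (-0.0065, 0.997). Pan2 (0.18, 0.753), Dcp2 (-0.11, 0.862), Tut7 (0.12, 0.753), Dis3l2 (-0.12, 0.906), Zswim8 (0.07, 0.913), Pnpt1 (-0.06, 0.962), Rangap1 (0.04, 0.992) and Xpo1 (-0.08, 0.892) completed them.

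Between early and late libraries, several lists held genes that passed (edgeR, adjusted p), where 5.46% of all genes passed upward and 6.72% downward. All 3 GW182 paralogues were higher: Tnrc6b had the largest difference, 0.80 (2.2e-06), with 79.3 to 84.4 CPM in the 4 early libraries against 42.7 to 53.5 in the 8 late let-7 libraries, and Tnrc6c had 0.26 (0.0285). Of 24 deadenylation and decapping genes 5 were higher and 1 lower: the deadenylase subunits Pan3 (0.55, 0.000122), Cnot6 (0.58, 0.00113) and Cnot1 (0.26, 0.0434), the helicase Ddx6 (0.54, 3.16e-05) and Dcp2 (0.35, 0.0125) rose, and Cnot3 (-0.46, 0.00118) fell. Of 11 loading partners 2 were higher, the chaperone Hsp90aa1 (0.47, 0.02) and its co-chaperone Ptges3 (0.45, 0.00255), and 1 lower, the helicase Mov10 (-0.41, 0.0183). Tut7 (0.34, 0.0033) and the exportin Xpo1 (0.28, 0.0235) were higher, and Zswim8 (-0.24, 0.0488), a factor of target-directed microRNA decay, was lower. Of the 8 Microprocessor helpers 0 passed, the smallest p being that of Hnrnpa1 (0.24, 0.0877) among those above 0 and of Khsrp (-0.22, 0.112) among those below; Xrn2 (0.25, 0.0717) and Rangap1 (-0.38, 0.0876) did not pass either.

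With the length and GC trend taken out, fewer of these passed. Tnrc6b had 0.45 (adjusted p = 0.0101, edgeR), Pan3 0.37 (0.00454), Ddx6 0.32 (0.0286), Ptges3 0.34 (0.043) and Cnot3 -0.51 (0.00496). Cnot6 (0.32, 0.0784) and Hsp90aa1 (0.35, 0.183) no longer did, and Cnot1 (0.0009), Xpo1 (0.01), Zswim8 (0.01), Tnrc6c (0.07), Tut7 (0.14), Mov10 (-0.13) and Dcp2 (0.06) moved toward 0. Tnrc6b was thus the GW182 paralogue that passed in both fits.

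Genes of the PIWI pathway, which handles the small RNAs of the germ line, served as a check on germ cell transcripts. Of 10 listed, 3 were measured, and control 6 alone was high in them, with 108.2 CPM of Mael, 46.0 CPM of Ddx4 and 15.8 CPM of Piwil2. The other 16 libraries held at most 1.009 CPM of Mael, 0.745 CPM of Ddx4 and 1.44 CPM of Piwil2. Ddx4 accordingly had log2 fold changes of -4.26 with let-7d (adjusted p = 0.456, edgeR) and -4.74 with let-7e (0.356). Mael had -0.77 (0.859) between early and late libraries and -1.16 (0.965) between let-7e and let-7d. None of the 10 processing and Argonaute genes stood out in control 6 to that degree: there Ago2 (44.5 CPM) and Ago1 (29.7 CPM) were at their lowest of all libraries, and Ago4 (10.8 CPM) was the highest of the controls.

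Within the 13 late libraries, no pair of the 10 genes was correlated past the threshold. Of 45 pairs, 0 passed an adjusted p of 0.05 (permutation test of Pearson's r, 100000 resamples, adjusted over the 45 pairs), 25 of 45 coefficients were positive and their median was 0.04. The highest was Dicer1 with Xpo5 (r = 0.70, permutation p = 0.0065, adjusted 0.29; Spearman's rho = 0.64, p = 0.021, adjusted 0.51), and r was 0.72 without control 2 and let-7d 3, the libraries farthest from the median of Dicer1.

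Likeness was ranked over 10879 genes averaging 5 CPM or more, leaving out predicted genes, pseudogenes and genes without a symbol. Those whose log2 level over the 17 libraries was most like that of Dicer1 were Zmym5 (r = 0.92), Arfgef1 (0.89) and Relch (0.88). In the 13 late libraries alone these coefficients were 0.86, 0.87 and 0.88. For Ago2 they were Nsd1 (r = 0.93; 0.90 in the late libraries), Frrs1 (0.89; 0.94) and Hivep2 (0.88; 0.88). These are descriptions of genes picked for likeness, the early libraries, which stand apart, are among the 17, and libraries share depth and length trends.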

How the data were processed

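RNA of whole eWAT was sequenced, from 1 ug of total RNA per library per the labels. The authors deposited whole-number read counts per Ensembl gene after their own CPM filter, whose threshold is not given in the sources used here; per the submitters' processing notes reads were aligned with STAR to GRCm38.p6 (version not stated), and the counting tool is not given. A second deposited table, named RPKM, was not used. Symbols, lengths and transcript sequences came from GENCODE M21: 16438 identifiers matched without their version and 14 did not.

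Counts were analysed in R 4.3.3 with edgeR 4.0.16 (TMM scaling, quasi-likelihood test, group and identifier series as terms, all 17 libraries, filterByExpr removing 0 genes), with p adjusted by Benjamini-Hochberg over 16452 genes at a threshold of 0.05. Intervals at the 95% level use the total degrees of freedom of the test, residual and prior together, and shares were compared by exact permutation, two-sided. Levels are CPM after TMM; log2 CPM for correlations has a prior count of 2. Alternatives used DESeq2 1.42.0 and limma 3.58.1 (voom), DESeq2's size factors, a filter at a mean of 5 CPM, subsets of libraries, a replicate block, no series term, each library left out in turn and, added after seeing the data, a length and GC offset. On simulated counts of 16452 genes, the fit recovered 83% of 2-fold and 97% of 4-fold changes in the let-7d comparison, 77% and 96% in the let-7e comparison, 82% and 96% between the let-7 groups, and 85% and 95% between early and late libraries.

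The 10 genes and the lists were chosen with earlier results of these data known. The text names all 10 genes; from each list with at least 3 measured genes, the gene of smallest p in each direction and any that passed, except 1 gene that is not reported here; and, for Dicer1 and Ago2, the 3 genes of most similar pattern. Total counts of 12717365 to 28972306 set the counting precision. Of the same-numbered pairs of libraries 4 of 16 correlated above 0.1, beside 28 of 80 pairs with different numbers, so numbers were not used as pairs.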

Additional observations from a re-analysis of the deposited data

Results flagged for a closer look

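Ago4 stood at 11.6 CPM in let-7e 2, an early library, above the other 5 let-7e libraries, which lay between 7.81 and 9.18 CPM. The gap was 0.636 of the group's range, just past the critical value of 0.625, and let-7d 2, also early, stood at 11.5 CPM. Of 33 combinations of a gene or share with a group of libraries checked for such a distant sample, this was the only one found. Chance alone gives about 1 in every 20 combinations checked, so 1 among 33 is not unusual.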

How the results depend on the processing

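None of the 10 genes passed in either comparison with the controls, or between the let-7 groups, under any alternative run; over all genes DESeq2's Wald test called 10 with let-7d, 15 with let-7e and 14 between them, where edgeR called 0. Fold changes near 0 changed sign, none past the threshold; the cause was not tested. With let-7d, Drosha became 0.020 with limma-voom, 0.043 without the 4 libraries and 0.0043 with the length and GC offset. Ago1 became 0.0059 with DESeq2 size factors, 0.0089 with the 5 CPM filter, 0.0072 with DESeq2, 0.054 with no series term and 0.029 with the length and GC offset, and Tnrc6a 0.12 with no series term. With let-7e, DESeq2 size factors gave Dicer1 0.0046 and Tnrc6a 0.0058, and DESeq2 gave Dicer1 0.0042 and Tnrc6a 0.0046. The fit without the 4 libraries gave Dicer1 0.046, Ago3 0.031, Ago4 0.0035 and Tnrc6a 0.037. No series term gave Dicer1 0.090, Drosha -0.040, Ago3 0.067, Ago4 0.075 and Tnrc6a 0.16. Late libraries alone gave Dicer1 0.036, Ago4 0.0048 and Tnrc6a 0.028, and only the groups compared gave Dicer1 0.042, Ago4 0.011 and Tnrc6a 0.033. The length and GC offset gave Dicer1 0.025, Ago3 0.016 and Tnrc6a 0.025, and limma-voom gave Ago3 0.031 and Ago4 0.021. Between let-7e and let-7d, Xpo5 had 0.0022 with limma-voom, 0.051 without the 4 libraries and 0.078 in late libraries alone. Between early and late libraries the length and GC offset gave Ago2 -0.063 and Ago3 -0.11.

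Leaving out 1 library in turn gave, with let-7d, -0.067 to 0.039 for Ago1, -0.022 to 0.060 for Ago3, -0.034 to 0.13 for Dgcr8, -0.068 to 0.030 for Drosha and -0.069 to 0.018 for Tnrc6a. With let-7e it gave -0.013 to 0.11 for Ago1, -0.084 to 0.012 for Ago3, -0.091 to 0.049 for Ago4, -0.070 to 0.065 for Dicer1, -0.011 to 0.086 for Drosha and -0.028 to 0.031 for Tnrc6a. Between let-7e and let-7d it gave -0.11 to 0.038 for Ago2, -0.0013 to 0.12 for Dgcr8, -0.0016 to 0.065 for Tnrc6a and -0.079 to 0.055 for Xpo5. The Ago2 share differed between let-7e and let-7d by -3.79 to 0.0762 percentage points, the sign changing without let-7d 6. With the early libraries added, the share exceeded that of controls by 4.62 points with let-7d and 3.08 with let-7e, past the threshold.

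Between early and late libraries 2005 genes passed, and 1260 (without let-7d 1) to 2326 when 1 library was left out; limma-voom called 3513 and the length and GC offset 385. Of the 10 genes 4 passed, beside 12.2% of all genes, and 2 to 4 with 1 library left out (2 without let-7d 2, let-7d 3, let-7e 2 or let-7e 4). DESeq2 called 5 of the 10 and 16.6% of all genes, limma-voom 6 and 21.4%, and the offset 1 and 2.34%. The replicate block, in which early libraries are replicates 1 and 2 of their groups, left 44 genes and 0 of the 10. It gave Dgcr8 -0.13, Ago1 0.063 and Ago3 -0.022 with let-7d, Drosha -0.0077 and Dgcr8 -0.044 with let-7e, and Tarbp2 0.059 and Ago1 -0.040 between early and late. No pairing by number was seen: 2 of 17 libraries correlated best with their own number. With 16 same-numbered pairs a weak pairing could be missed. Ago4, the gene with the widest intervals, rested on 72 to 330 counts per library; the part of depth in that width was not tested.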
